A study of Mus musculus with 24 samples.

Results

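A set of 9 genes, listed as surface and secreted genes of resting microglia, was followed across prenatal history, brain region and treatment in adult mice. The genes were Tmem119, Cx3cr1, Fcrls, Selplg, Slc2a5, Gpr84, Olfml3, Sparc and Cst3. Of these, Gpr84 goes against the name of the set, as it stood higher after the immune challenge described below than at rest. They were taken by name from the 55487 genes of the count table, and all 9 were among the 17139 genes tested. RNA had been sequenced from cells held by magnetic anti-CD11b beads from the frontal cortex and striatum of male mice of 8 to 10 weeks. Mice received lipopolysaccharide (LPS, a bacterial cell wall component that triggers innate immune signalling) at 4500 endotoxin units per gram of body weight, or saline, by intraperitoneal injection 18 h before the cells were collected. They were offspring of pregnancies with maternal immune activation (MIA), an inflammatory challenge to the dam whose agent the labels do not name, or control offspring.

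The 8 groups were MIA striatum LPS, MIA striatum saline, control striatum LPS, control striatum saline, MIA cortex LPS, MIA cortex saline, control cortex LPS and control cortex saline. Each had 3 libraries, except MIA striatum LPS, which had 2 because the submitters marked its replicate 3 as excluded. The 23 libraries held 19453300 to 29480500 counts each. The labels do not say whether replicates came from separate mice, whether the cortex and striatum libraries of one number came from one mouse, or which litter a mouse came from. The p-values therefore measure the spread between these libraries, and a difference between MIA and control cannot be told apart from one between litters. Itgam, which encodes CD11b, lay between 582.9 and 1389 CPM (counts scaled to library size) in all 23 libraries. It fell after LPS in control striatum by 0.64 ± 0.21 on the log2 scale (edgeR, adjusted p = 0.036).

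Microglia are the resident macrophages of the brain, and in the undisturbed tissue they express a set of homeostatic genes that is commonly reduced when the cells become reactive. Several of these genes face the surroundings of the cell. Cx3cr1 is the receptor for the neuronal chemokine fractalkine, Selplg is the ligand of the selectins, Slc2a5 is the fructose transporter GLUT5, and Tmem119 and Fcrls are membrane proteins used to mark microglia in mice. Olfml3, Sparc and Cst3 encode secreted proteins: an extracellular matrix glycoprotein, a collagen-binding matricellular protein, and cystatin C, an inhibitor of cysteine proteases. Gpr84 is a receptor that responds to medium-chain fatty acids and is known as a gene of activated myeloid cells.

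After LPS, the mean level of Gpr84 was higher and those of the other 8 genes were lower in each of the 4 prenatal and regional groups. Slc2a5 and Gpr84 moved most: averaged over the 4 groups, Slc2a5 fell by 1.98 ± 0.13 on the log2 scale, to 0.253 of its level in saline, and Gpr84 rose by 1.83 ± 0.14, to 3.55 times (log2 fold change ± SE from 1 model of 23 libraries, edgeR's quasi-likelihood test with Benjamini-Hochberg adjusted p = 2.5e-10 and 2.2e-09). The remaining 7 fell by between 0.38 (Cx3cr1) and 0.82 (Olfml3). A change counts as called where the adjusted p is under 0.05, which held for all 9 in this average, 8 lower and 1 higher. Of all tested genes, 16.9% were called lower and 20.7% higher. If cortex and striatum libraries share mice, these averaged p-values are too small.

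**Figure D1:**
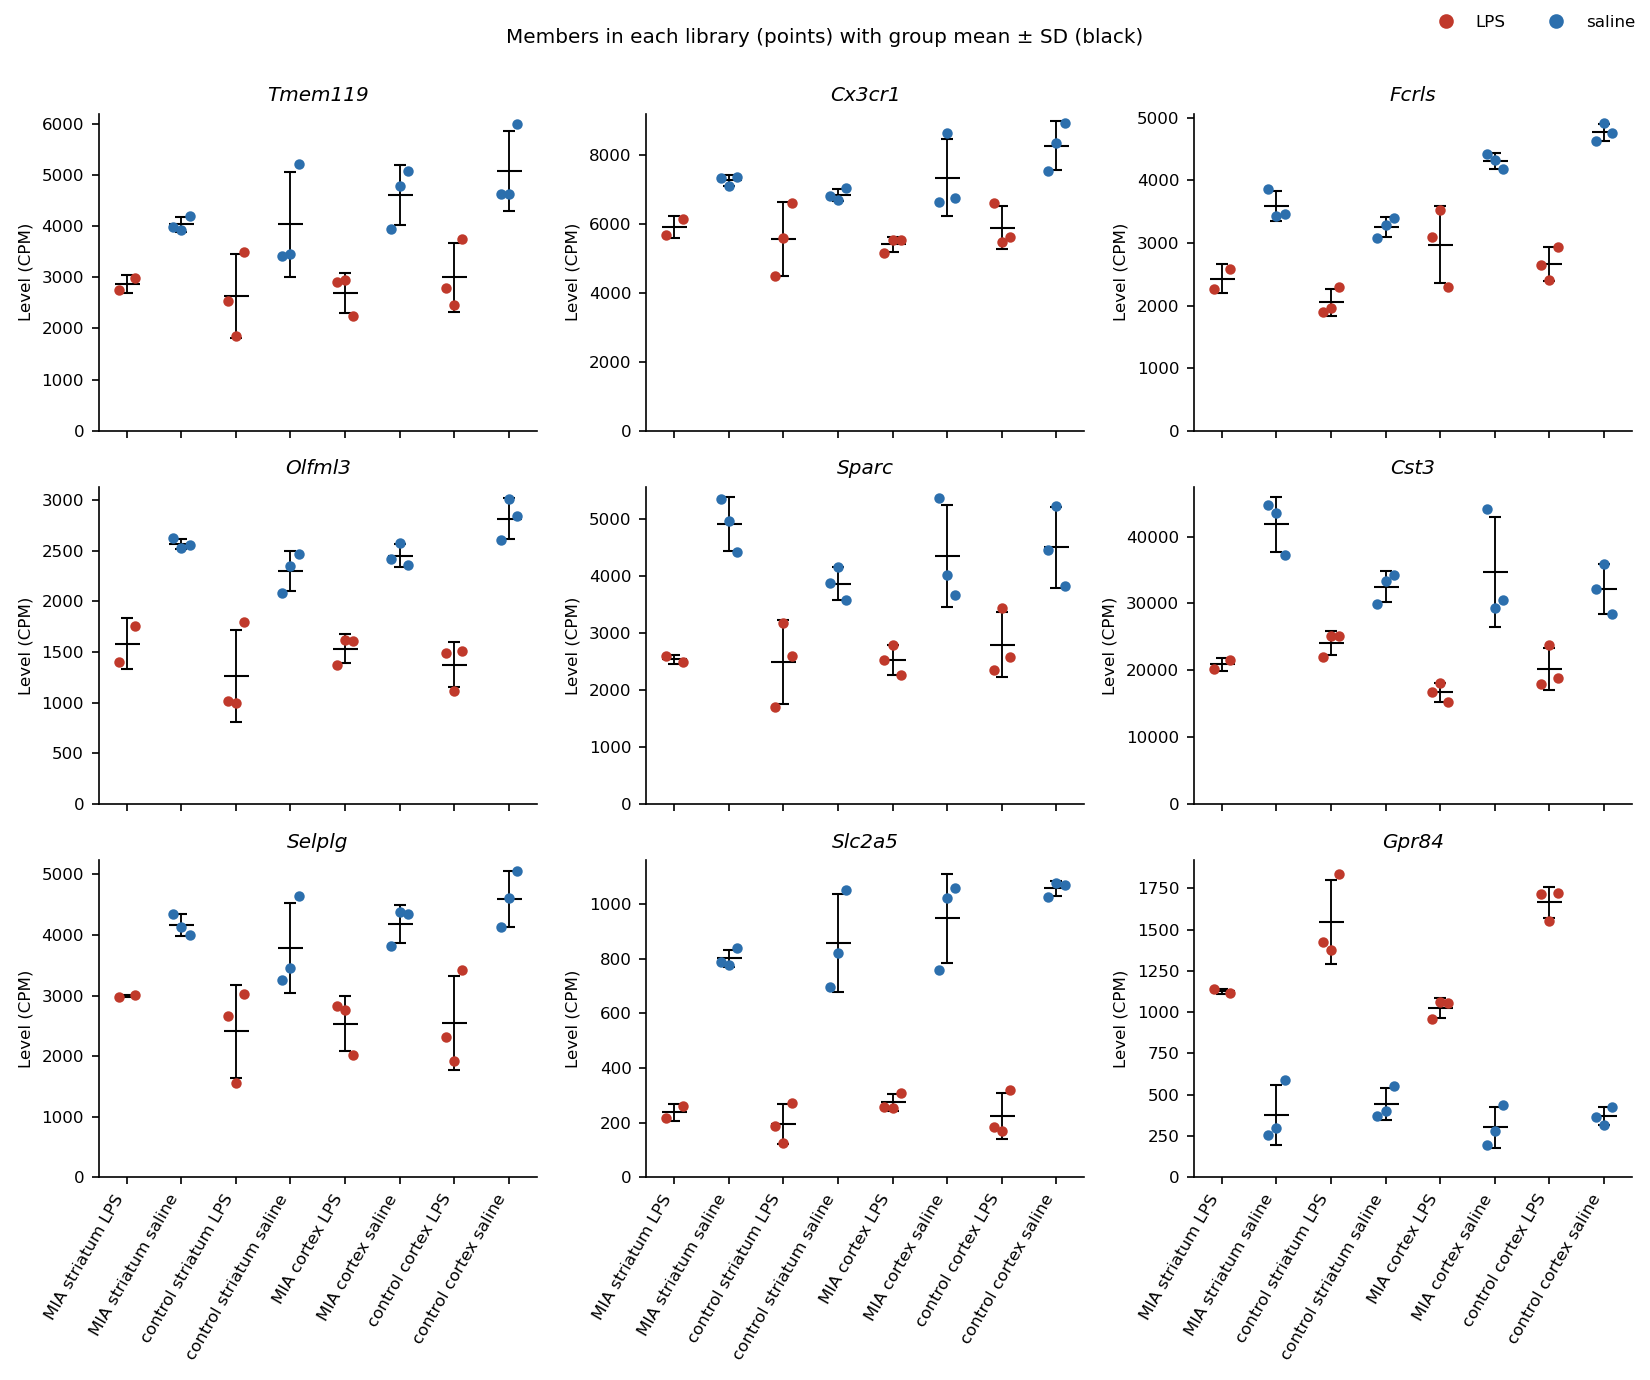
Levels of the 9 genes in CPM (vertical axes, from 0) for every library, by group (horizontal axes), with LPS libraries in red, saline libraries in blue, and the group mean ± SD in black (n = 3, or 2 in MIA striatum LPS). All 11 LPS libraries lie under all 12 saline libraries for Slc2a5 and above them for Gpr84.

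Slc2a5 stood at 216.5 and 260.5 CPM in MIA striatum LPS, and at 787.4, 776.1 and 837.0 CPM in MIA striatum saline. In the control striatum it stood at 186.8, 123.6 and 270.8 CPM after LPS and at 695.4, 821.5 and 1051 CPM after saline. The highest LPS library of all, at 318.6 CPM, was control cortex LPS replicate 3, and the lowest saline library, at 695.4 CPM, was 2.18 times as high. No LPS library came near the saline range in either region or prenatal group. In the cortex Slc2a5 stood at 257.4, 254.4 and 308.5 CPM in MIA LPS libraries against 759.3, 1023 and 1059 CPM in MIA saline libraries, and at 184.2, 167.7 and 318.6 CPM in control LPS libraries against 1026, 1076 and 1069 CPM in control saline libraries. The log2 fold changes were -1.75 ± 0.29 in MIA striatum, -2.14 ± 0.25 in control striatum, -1.79 ± 0.25 in the MIA cortex and -2.24 ± 0.26 in control cortex (edgeR's quasi-likelihood test, adjusted p = 0.00039, 4.3e-06, 5.9e-05 and 3e-06).

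The region around the start of Slc2a5, the gene with the deepest fall, is shown beside those of Gpr84, the gene that rose, and Fcrls. By edgeR, Fcrls was called between regions only in an average over 4 settings, added after the values were seen. In that average 2.45% of all genes were called. The sequences are from RefSeq on build GRCm38.p6, where 7 of the 9 genes had an entry and Tmem119 and Selplg had none. Each runs 5′ to 3′ along the gene from 250 bases before its start to 50 after it, at chr4:150119094-150119393 on the plus strand for Slc2a5, chr15:103310389-103310688 on the minus strand for Gpr84 and chr3:87263475-87263774 on the minus strand for Fcrls. Capitals mark letters that match 1 of 4 motifs on either strand: GAGGAA (core of the PU.1 site), GGGNNNNNCC (kappaB), TGANTCA (AP-1) and CAGAC (SMAD box).
Slc2a5: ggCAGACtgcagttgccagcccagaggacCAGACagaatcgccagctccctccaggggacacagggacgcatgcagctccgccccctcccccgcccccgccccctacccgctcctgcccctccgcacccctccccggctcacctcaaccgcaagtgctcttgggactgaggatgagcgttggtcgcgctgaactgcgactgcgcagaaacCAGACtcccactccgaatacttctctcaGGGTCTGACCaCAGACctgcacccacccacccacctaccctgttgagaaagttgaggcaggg
Gpr84: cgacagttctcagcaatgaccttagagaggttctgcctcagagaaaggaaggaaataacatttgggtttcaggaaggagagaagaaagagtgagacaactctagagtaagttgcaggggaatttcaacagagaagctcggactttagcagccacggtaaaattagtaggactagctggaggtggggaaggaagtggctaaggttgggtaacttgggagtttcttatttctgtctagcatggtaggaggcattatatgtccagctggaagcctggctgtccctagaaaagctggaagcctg
Fcrls: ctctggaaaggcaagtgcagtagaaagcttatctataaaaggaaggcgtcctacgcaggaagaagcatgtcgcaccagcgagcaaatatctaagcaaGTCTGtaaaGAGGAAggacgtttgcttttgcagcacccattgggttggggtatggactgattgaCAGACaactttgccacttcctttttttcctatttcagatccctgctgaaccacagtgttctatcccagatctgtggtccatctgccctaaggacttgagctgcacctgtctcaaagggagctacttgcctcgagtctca

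The window of Slc2a5 held 5 copies of the SMAD box and 1 kappaB match, which overlapped 1 of those copies. Fcrls had 1 PU.1 core and 2 SMAD boxes, and the window of Gpr84 matched none of the 4 motifs. Among the 7 genes with a window, 5 had a kappaB match, 5 a SMAD box, 2 a PU.1 core and 0 an AP-1 match. These letters are common: of 32851 mouse promoters of the same length, 50.8% held the kappaB letters, 49.6% the SMAD box, 28.3% the PU.1 core and 7.81% the AP-1 letters. A match is only a run of letters, and its absence says nothing of whether the factor binds.

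Gpr84 moved the other way at similar size. It stood at 1138 and 1115 CPM in MIA striatum LPS against 253.5, 296.8 and 586.1 CPM in MIA striatum saline, and at 1426, 1373 and 1838 CPM in control striatum LPS against 372.0, 403.6 and 554.2 CPM in control striatum saline. In the cortex it stood at 955.3, 1064 and 1056 CPM in MIA LPS libraries against 192.1, 277.9 and 435.3 CPM in MIA saline libraries, and at 1715, 1554 and 1722 CPM in control LPS libraries against 364.3, 316.9 and 426.4 CPM in control saline libraries. All 11 LPS libraries lay above all 12 saline libraries, and the lowest LPS library (955.3 CPM) was a MIA one. The log2 fold changes were 1.57 ± 0.30 in MIA striatum, 1.80 ± 0.28 in control striatum, 1.76 ± 0.28 in the MIA cortex and 2.17 ± 0.28 in control cortex (edgeR's quasi-likelihood test, adjusted p = 0.0014, 9.1e-05, 2e-04 and 1.5e-05). An antisense gene, Gm49482, overlaps 39.5% of the exonic bases of Gpr84 in GENCODE M21, and without strand in the counting, reads from the shared 681 bases cannot be told apart. Gm49482 itself was listed at 0 to 107 CPM in LPS libraries (median 19) and 0 to 16.6 CPM in saline libraries (median 7.63), and was not called in the average over groups (log2 fold change 1.97 ± 0.78, adjusted p = 0.054).

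Of the surface proteins, Tmem119 stood at 2747 and 2992 CPM in MIA striatum LPS against 3983, 3926 and 4203 CPM in MIA striatum saline, and at 2529, 1861 and 3499 CPM in control striatum LPS against 3421, 3462 and 5217 CPM in control striatum saline. Within the cortex it stood at 2899, 2947 and 2238 CPM in MIA LPS libraries against 3941, 4778 and 5073 CPM in MIA saline libraries, and at 2784, 2461 and 3747 CPM in control LPS libraries against 4629, 4623 and 5986 CPM in control saline libraries. The groups overlapped in the control striatum, where LPS replicate 3 lay above saline replicates 1 and 2. Tmem119 fell in control striatum (log2 fold change -0.62 ± 0.22, adjusted p = 0.047), MIA cortex (-0.77 ± 0.22, 0.023) and control cortex (-0.76 ± 0.22, 0.017), while in MIA striatum the change of -0.49 ± 0.24 was not called (adjusted p = 0.25). The control striatum call was lost with the excluded library added back (0.053) and with 13 of the 23 libraries left out in turn, and the change there was -0.39 (0.25) without control striatum saline replicate 3. In MIA cortex and in control cortex the call was lost with 3 of 23 left out in each.

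Cx3cr1 changed least of the 9. It averaged 5919 ± 323 CPM in MIA striatum LPS (SD, n = 2) and 7258 ± 146 CPM in MIA striatum saline, and 5558 ± 1070 CPM in control striatum LPS and 6845 ± 170 CPM in control striatum saline (SD, n = 3). In the cortex it averaged 5408 ± 219 CPM in MIA LPS libraries and 7336 ± 1120 CPM in MIA saline libraries, and 5891 ± 614 CPM in control LPS libraries and 8265 ± 706 CPM in control saline libraries (SD, n = 3 each). All 11 LPS libraries, at 4480 to 6613 CPM, lay below all 12 saline libraries, at 6635 to 8923 CPM, though 6613 and 6635 CPM are close. Its exons share 1.73% of their bases with an antisense gene, Gm33858. Cx3cr1 fell in MIA cortex (log2 fold change -0.44 ± 0.14, adjusted p = 0.047) and control cortex (-0.49 ± 0.14, 0.019), and the changes of -0.29 ± 0.16 in MIA striatum and -0.30 ± 0.14 in control striatum were not called (adjusted p = 0.31 and 0.15). The MIA cortex call was lost with 15 of the 23 libraries left out in turn and under 3 of 6 other settings, and the change there was -0.28 (0.32) without MIA cortex saline replicate 2. The control cortex call was lost with 4 of 23 left out. The LPS effect was not shown to differ between regions for Cx3cr1: the difference of the 2 effects, striatum minus cortex, was 0.15 (95% confidence interval -0.29 to 0.59) in MIA and 0.19 (-0.23 to 0.60) in control mice.

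Fcrls, a scavenger receptor-like protein of mouse microglia, fell in all 4 groups, by 0.57 ± 0.16 in MIA striatum, 0.67 ± 0.14 in control striatum, 0.54 ± 0.14 in the MIA cortex and 0.84 ± 0.14 in control cortex on the log2 scale (adjusted p = 0.023, 0.0016, 0.014 and 0.00019). Its libraries ran from 1899 to 3525 CPM after LPS (median 2406) and from 3081 to 4910 CPM after saline (median 4022). They did not overlap within a region and prenatal group, for which no share over all genes was computed. The overlap of the pooled ranges came from 2 MIA cortex LPS libraries that lay above the lowest striatal saline library. The MIA striatum call was lost without LPS replicate 1 (0.17), LPS replicate 2 (0.060) or saline replicate 1 (0.092) of that group, and without the filter on low genes (0.079).

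Selplg followed Tmem119 closely. It averaged 2992 ± 20.4 CPM in MIA striatum LPS (SD, n = 2) and 4164 ± 177 CPM in MIA striatum saline, and 2412 ± 770 CPM in control striatum LPS and 3782 ± 746 CPM in control striatum saline (SD, n = 3). Within the cortex it averaged 2537 ± 452 CPM in MIA LPS libraries and 4183 ± 314 CPM in MIA saline libraries, and 2552 ± 778 CPM in control LPS libraries and 4599 ± 464 CPM in control saline libraries (SD, n = 3 each). It fell in control striatum (log2 fold change -0.65 ± 0.22, adjusted p = 0.044), MIA cortex (-0.72 ± 0.22, 0.039) and control cortex (-0.85 ± 0.22, 0.010), and the change of -0.48 ± 0.25 in MIA striatum was not called (0.29). The calls in control striatum and MIA cortex were each lost with the excluded library added back (0.053 and 0.051) and with 7 of the 23 libraries left out in turn, and the control striatum change was -0.41 (0.19) without LPS replicate 2. The control cortex call was lost with 2 of 23 left out.

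The 2 genes are neighbours. In GENCODE M21 on GRCm38, Tmem119 lies at chr5:113793729-113800516 and Selplg at chr5:113818536-113832644, both on the minus strand, 18019 bases apart, with 0 protein-coding RefSeq genes starting between them. Across the 23 libraries, Selplg was the gene whose centred log2 CPM differed least from that of Tmem119, with a root mean square (RMS) difference of 0.129, out of 8278 genes whose mean level was 10 CPM or more, and Tmem119 was number 2 for Selplg. The ratio of Selplg to Tmem119 CPM stayed between 0.781 and 1.09 (median 0.936) while Tmem119 spanned 3.22-fold and Selplg 3.27-fold between its lowest and highest library. The pair was singled out after its values had been seen, and the libraries share treatment and scaling, so this is a description.

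**Figure D2:**
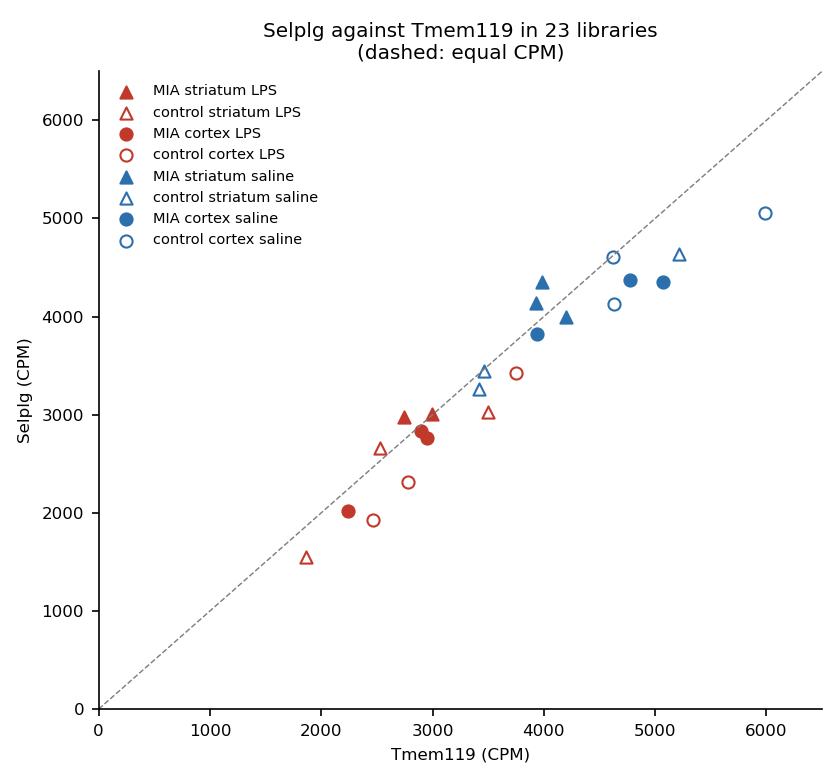
Selplg (vertical axis, CPM) against Tmem119 (horizontal axis, CPM) in each of the 23 libraries; colour gives the treatment, shape the region, and filled symbols MIA. The points run along the dashed line of equal CPM, most of them just under it, with Selplg at 0.781 to 1.09 of Tmem119.

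The genes of the 3 secreted proteins had lower mean levels after LPS in each group. Olfml3 and Sparc were called lower in all 4 groups, and Cst3 in all but control striatum. Of all tested genes, between 3.31% (MIA striatum) and 8.15% (control striatum) were called lower per group. Olfml3 stood at 1404 and 1759 CPM in MIA striatum LPS against 2621, 2524 and 2553 CPM in MIA striatum saline, and at 1015, 992.0 and 1792 CPM in control striatum LPS against 2083, 2349 and 2464 CPM in control striatum saline. In the cortex it stood at 1370, 1622 and 1604 CPM in MIA LPS libraries against 2417, 2574 and 2363 CPM in MIA saline libraries, and at 1488, 1118 and 1514 CPM in control LPS libraries against 2602, 3006 and 2841 CPM in control saline libraries. No LPS library reached the saline range. Olfml3 fell by 0.70 ± 0.21 in MIA striatum, 0.86 ± 0.18 in control striatum, 0.68 ± 0.18 in the MIA cortex and 1.04 ± 0.18 in control cortex on the log2 scale (adjusted p = 0.035, 0.0019, 0.018 and 0.00039). The MIA striatum call was lost without any 1 of LPS replicates 1 and 2 and saline replicates 1 and 2 of that group (0.067 to 0.31) and with the excluded library added back (0.056), and the MIA cortex call with 3 of 23 libraries left out.

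Sparc averaged 2542 ± 78.0 CPM in MIA striatum LPS (SD, n = 2) and 4921 ± 469 CPM in MIA striatum saline, and 2494 ± 740 CPM in control striatum LPS and 3874 ± 285 CPM in control striatum saline (SD, n = 3). Within the cortex it averaged 2530 ± 260 CPM in MIA LPS libraries and 4354 ± 899 CPM in MIA saline libraries, and 2798 ± 569 CPM in control LPS libraries and 4508 ± 712 CPM in control saline libraries (SD, n = 3 each). It fell in all 4 groups, by 0.95 ± 0.23, 0.64 ± 0.20, 0.78 ± 0.20 and 0.69 ± 0.20 on the log2 scale in MIA striatum, control striatum, MIA cortex and control cortex (adjusted p = 0.0091, 0.028, 0.013 and 0.020). With 1 of 23 libraries left out, the call was lost 2 times in MIA striatum, 4 times in control striatum, where the change was -0.42 (0.13) without LPS replicate 1, and 3 times in control cortex. Sparc is also made by blood vessel cells. The summed level of 23 endothelial and pericyte markers was 1760 to 2047 CPM in control striatum LPS against 2849 to 5124 CPM in control striatum saline, and 12 of the 23 were called lower there. The sum in MIA striatum was 1889 to 2420 CPM after LPS and 1393 to 3908 CPM after saline, and in cortex LPS and saline libraries overlapped. Astrocytes also express Sparc and Cst3: 15 astrocyte markers summed to 334.0 to 1397 CPM in LPS libraries and 546.5 to 1304 CPM in saline libraries, with 1 called higher and 2 lower in the average over groups. The part of those cells in the fall of Sparc was not tested.

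Cst3, the protease inhibitor, stood at 20210 and 21600 CPM in MIA striatum LPS against 44800, 43550 and 37190 CPM in MIA striatum saline, and at 22040, 25100 and 25100 CPM in control striatum LPS against 29910, 33420 and 34240 CPM in control striatum saline. In the cortex it stood at 16800, 18150 and 15280 CPM in MIA LPS libraries against 44190, 29300 and 30550 CPM in MIA saline libraries, and at 17910, 23770 and 18790 CPM in control LPS libraries against 32150, 35930 and 28360 CPM in control saline libraries. All 11 LPS libraries lay below all 12 saline libraries, as for 3.05% of tested genes. MIA cortex saline replicate 1 stood well above the other 2 of its group. Cst3 fell in MIA striatum (log2 fold change -1.0 ± 0.19, adjusted p = 0.0011), MIA cortex (-1.05 ± 0.16, 0.00017) and control cortex (-0.67 ± 0.16, 0.0056), while the change of -0.43 ± 0.16 in control striatum, where the libraries did not overlap, was not called (0.065). It was called there with the replicate block (0.045), by DESeq2 (0.0083), with RLE size factors (0.032) and with library totals (0.012). It was not called without the filter on low genes or with the excluded library added back (up to 0.12). With 1 library left out, it was called in 3 of 23 fits, and the adjusted p reached 0.17.

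Counted over the 9 genes, LPS moved 5 lower and 1 higher in MIA striatum, 6 and 1 in control striatum, 8 and 1 in MIA cortex, and 8 and 1 in control cortex. The share of all tested genes called lower and higher was 3.31% and 6.93% in MIA striatum, 8.15% and 12.7% in control striatum, 4.85% and 7.05% in MIA cortex, and 7.25% and 10.9% in control cortex. The median log2 fold change of the 9 was -0.57, -0.64, -0.72 and -0.76 in that order of groups, against -0.06, -0.02, 0.02 and 0.04 over all tested genes. Over all 11 LPS and 12 saline libraries, 5 of the 9 genes (Cx3cr1, Olfml3, Sparc, Cst3 and Slc2a5) had every LPS library lower, as did 3.05% of tested genes, and 1 (Gpr84) had every LPS library higher, as did 5.78%. The counts depend on single libraries in all 4: leaving out 1 library of a compared group gave 3 calls in MIA striatum (without LPS replicate 1, and without LPS replicate 2), 4 in control striatum (without LPS replicate 1), 5 in MIA cortex (without saline replicate 2, and without saline replicate 3) and 6 in control cortex (without LPS replicate 1, and without LPS replicate 2).

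**Figure D3:**
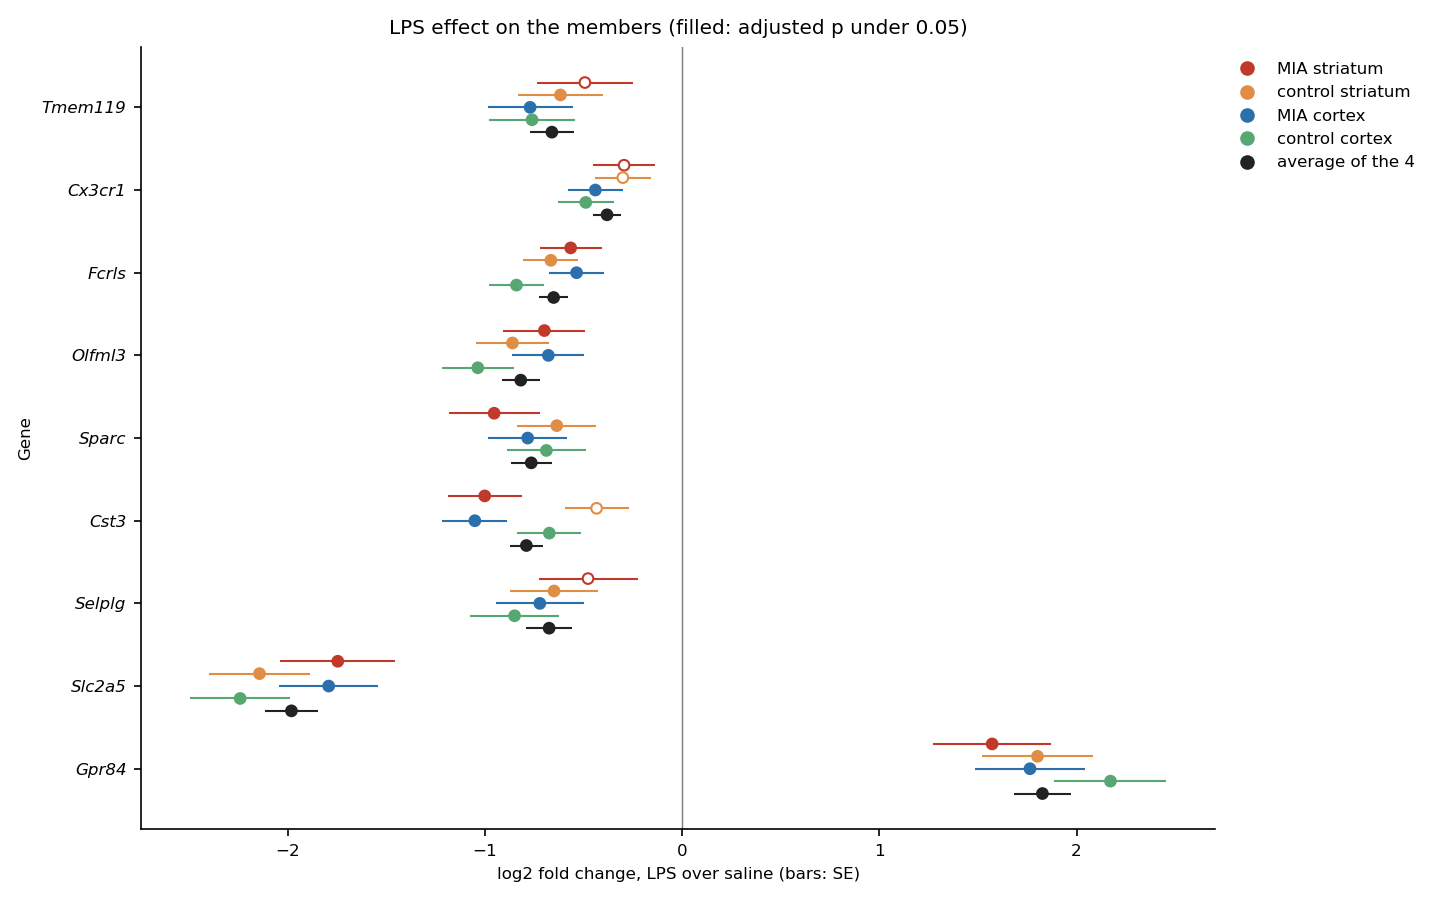
LPS effect on each gene as log2 fold change, LPS over saline (horizontal axis, bars give the SE), in MIA striatum, control striatum, MIA cortex, control cortex and their average; filled points have an adjusted p under 0.05. Slc2a5 lies between -1.75 and -2.24 and Gpr84 between 1.57 and 2.17, apart from the other 7.

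Other cell types can be held by CD11b beads, and their markers moved with LPS as well. Of 13 neutrophil markers, 7 were called higher in MIA striatum, 10 in control striatum, 1 in MIA cortex (with 2 lower) and 7 in control cortex. Csf3r was the most abundant, at 282.7 of the summed 299.0 CPM in MIA striatum saline replicate 2. In MIA cortex saline replicate 1 it was 240.9 of 1015 CPM. The summed level of the 13 was 580.6 to 1098 CPM in LPS libraries and 299.0 to 1015 CPM in saline libraries (median 903.6 and 389.6). As Csf3r makes up most of it in some libraries, this sum does not measure the number of neutrophils. That of 12 blood monocyte markers was 473.0 to 1314 CPM in LPS libraries and 586.1 to 1075 CPM in saline libraries, with Nr4a1, which activated cells of other types also express, the most abundant, and 6, 7, 4 and 7 of the 12 were called higher in the same order of groups. That of 12 markers of border-associated macrophages was 666.3 to 1968 CPM in LPS libraries and 617.0 to 1474 CPM in saline libraries. Of these 12, 7 were called higher and 0 lower in MIA striatum, 2 and 1 in control striatum, 1 and 1 in MIA cortex, and 1 and 1 in control cortex. Their sum in MIA striatum was 1448 to 1808 CPM after LPS against 625.9 to 827.4 CPM after saline. In the other groups the LPS and saline sums overlapped. Oligodendrocyte markers were called lower in control striatum for 3 of 13 (Mbp -2.91 ± 0.85, Mobp -2.83 ± 0.87 and Ugt8a -2.39 ± 0.75) and for 0 of 13 in the other groups. They summed to 1170, 525.3 and 894.1 CPM in control striatum LPS against 5655, 4283 and 1407 CPM in control striatum saline, where replicates 1 and 2 stood apart. Those 2 libraries also had lower Tmem119 (3421 and 3462 against 5217 CPM) and Selplg (3261 and 3450 against 4637 CPM) than replicate 3. The other members except Sparc were lower there too, Cx3cr1 by little (6796 and 6705 against 7034 CPM). Sparc was higher in them (3877 and 4158 against 3588 CPM). None of these lists had a marker at 0 in every library. In bulk RNA, fewer microglia in the sort and less RNA per microglial cell cannot be told apart, and the part of other cells in the LPS differences was not tested. MIA cortex LPS replicate 3 had the highest sum of neuron markers of all libraries (931.7 CPM, against 64.52 and 77.08 in its group). It also had the lowest Tmem119, Fcrls, Sparc, Cst3 and Selplg of its group. Its Slc2a5 was the highest (308.5 against 257.4 and 254.4 CPM), and its Cx3cr1, Olfml3 and Gpr84 lay between the others. Without this library, 6 of the 9 genes were called for LPS in MIA cortex.

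Among other homeostatic microglia genes more fell than rose. Of 30 such genes, LPS gave 11 lower and 1 higher in MIA striatum, 16 and 4 in control striatum, 15 and 0 in MIA cortex, and 16 and 3 in control cortex, and the rest were not called. Their median log2 fold change was -0.62, -0.52, -0.61 and -0.70 in that order. Gpr34, a receptor for lysophosphatidylserine, and P2ry12, the ADP receptor that guides microglial processes, had the smallest adjusted p in each group, with Siglech, a sialic acid-binding lectin, next. Gpr34 ran from 337 to 503 CPM in LPS libraries and from 1840 to 2470 CPM in saline libraries, and its log2 fold change was between -2.23 and -2.65. P2ry12 ran from 834 to 1460 CPM in LPS libraries against 3710 to 5760 CPM in saline libraries (log2 fold change -1.97 to -2.31), and Siglech from 451 to 821 CPM against 1690 to 2360 CPM (-1.50 to -1.76). The fourth named gene was Sall1, a transcription factor of microglial identity, in MIA striatum (-1.47 ± 0.21), Crybb1, a crystallin, in control striatum (-1.50 ± 0.18) and control cortex (-1.53 ± 0.18), and Trem2, a lipid-sensing receptor, in MIA cortex (-1.32 ± 0.15). The members that rose were P2ry6, C1qa, C1qb and Spi1 in control striatum, C1qa, Spi1 and C1qb in control cortex, and P2ry6 in MIA striatum.

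Binding partners, substrates and relatives of the 9 were mixed. Of 37 listed genes 35 were tested, and LPS gave 11 higher and 2 lower in MIA striatum, 10 and 7 in control striatum, 9 and 3 in MIA cortex, and 10 and 4 in control cortex. Among them, the relatives of falling genes did not all fall. Slc2a6, another sugar transporter of the Slc2a5 family, stood at 6.62 to 40.9 CPM in LPS libraries against 0.487 to 2.34 CPM in saline libraries and rose in all 4 groups, by 3.48 ± 0.49 in MIA striatum, 3.99 ± 0.47 in control striatum, 2.86 ± 0.46 in the MIA cortex and 4.71 ± 0.50 in control cortex on the log2 scale. Cst7, which encodes cystatin F, a relative of cystatin C, stood at 30.9 to 52.0 CPM against 6.53 to 14.5 CPM and rose by 1.79 ± 0.23, 2.10 ± 0.21, 1.68 ± 0.21 and 1.67 ± 0.21 in the same order of groups.

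Ctsl, a cysteine protease of the class that cystatins inhibit, stood at 2100 to 3300 CPM in LPS libraries against 1070 to 1510 CPM in saline libraries and rose by 1.05 ± 0.16 in MIA striatum, 1.24 ± 0.15 in control striatum, 1.28 ± 0.15 in the MIA cortex and 1.29 ± 0.15 in control cortex. Gpr65, an acid-sensing receptor, stood at 61.5 to 230.0 CPM against 15.3 to 27.4 CPM and rose by 2.68 ± 0.35, 2.78 ± 0.34, 2.13 ± 0.33 and 2.77 ± 0.34 in the same order of groups. Gpr34 is on this list too and counts in both. Fcrl1, an Fc receptor-like relative of Fcrls, stood at 16.6 to 32.2 CPM in LPS libraries against 46.8 to 75.5 CPM in saline libraries and fell by 1.15 ± 0.22, 1.00 ± 0.19, 1.28 ± 0.19 and 1.37 ± 0.19 in that order. All of these had adjusted p of 0.0012 or lower in edgeR's quasi-likelihood test.

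Between MIA and control offspring, edgeR's quasi-likelihood test called 0 of the 9 genes in striatum LPS, cortex LPS, striatum saline and cortex saline, and DESeq2 also called 0 in each. At an unadjusted p under 0.05 in edgeR there were 0, 1, 1 and 0 in that order, against 1556, 837, 842 and 921 of all 17139 tested genes. Of all tested genes edgeR called 0.146%, 0%, 0% and 0%, and DESeq2 called 225, 54, 1 and 2 genes. Libraries of MIA and control groups did not overlap for 2, 1, 5 and 2 of the 9 genes, against 22.4%, 7.85%, 13.3% and 13.1% of all tested genes. Averaged over the 4 settings, the 8 genes other than Gpr84 changed by between -0.04 (Tmem119) and 0.11 (Olfml3) on the log2 scale, and the widest of their 95% confidence intervals, that of Slc2a5, ran from -0.18 to 0.35.

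**Figure D4:**
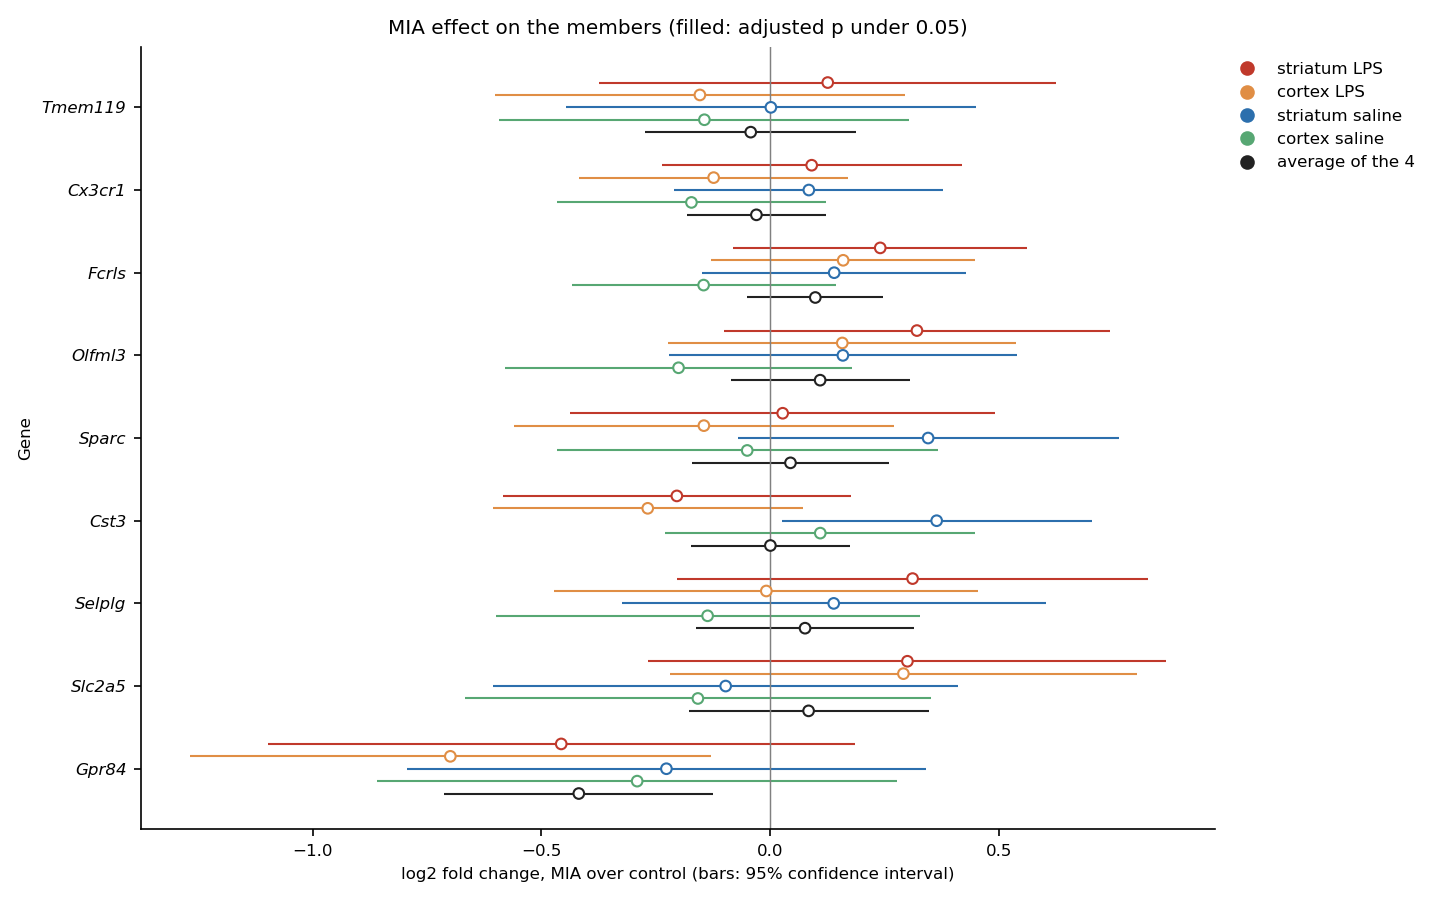
MIA effect on each gene as log2 fold change, MIA over control (horizontal axis, bars give the 95% confidence interval), in striatum LPS, cortex LPS, striatum saline, cortex saline and their average. No point passes an adjusted p of 0.05, and the 5 points of Gpr84 all lie below 0.

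Gpr84 was lower in MIA than in control mice in mean level in all 4 settings, with log2 fold changes of -0.46 ± 0.31 in striatum LPS, -0.70 ± 0.27 in cortex LPS, -0.23 ± 0.27 in striatum saline and -0.29 ± 0.27 in cortex saline. After LPS the libraries did not overlap, as for 7.85% of all tested genes in cortex and 22.4% in striatum. MIA cortex LPS stood at 955.3 to 1064 CPM against 1554 to 1722 CPM in control cortex LPS. MIA striatum LPS stood at 1115 and 1138 CPM against 1373 to 1838 CPM in control striatum LPS. After saline they overlapped in both regions, and both differences rest on single libraries. With 1 library left out, the difference ran from -0.68 (without MIA striatum saline replicate 3) to -0.0063 (without MIA striatum saline replicate 1) in striatum saline, and from -0.66 (without MIA cortex saline replicate 3) to 0.0021 (without MIA cortex saline replicate 1) in cortex saline. None of the 4 was called (adjusted p = 0.71, 0.89, 0.96 and 0.98), and neither was their average of -0.42 ± 0.14, a contrast added after these values had been seen (unadjusted p = 0.0076, adjusted p = 0.27, 95% confidence interval -0.71 to -0.12), where 0.35% of all genes were called. In that average edgeR and DESeq2 called 0 of the 9, and DESeq2 called 310 of all genes. Gpr84 was the 1 member with an unadjusted p under 0.05 in edgeR, as were 1803 of all 17139 tested genes. If cortex and striatum libraries share mice, the p-value of this average is too small. Border-associated macrophage markers summed to 1448 to 1808 CPM in MIA striatum LPS against 666.3 to 972.3 CPM in control striatum LPS, and to 910.1 to 1968 CPM in MIA cortex LPS against 847.7 to 1479 CPM in control cortex LPS. Neutrophil markers summed to 619.3 to 904.2 CPM in MIA striatum LPS against 632.7 to 930.7 CPM in control striatum LPS, and to 580.6 to 903.6 CPM in MIA cortex LPS against 920.3 to 1098 CPM in control cortex LPS, where they did not overlap. The part of these cells in the difference of Gpr84 was not tested. The MIA by LPS interaction of Gpr84 was -0.23 (-1.08 to 0.62) in striatum and -0.41 (-1.21 to 0.39) in cortex, so the size of its LPS response was not shown to differ with prenatal history.

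In saline, 5 genes stood higher in every MIA striatum library than in every control striatum library: Cx3cr1, Fcrls, Olfml3, Sparc and Cst3. Libraries of these 2 groups did not overlap, in either direction, for 13.3% of all tested genes. The largest differences were those of Cst3, at 37190 to 44800 CPM in MIA against 29910 to 34240 CPM in control mice (log2 fold change 0.36 ± 0.16, unadjusted p = 0.037, adjusted p = 0.92), and Sparc, at 4431 to 5365 CPM against 3588 to 4158 CPM (0.35 ± 0.20, adjusted p = 0.92). Neither was called. Endothelial and pericyte markers summed to 1393 to 3908 CPM in MIA striatum saline against 2849 to 5124 CPM in control striatum saline. Oligodendrocyte markers summed to 2757, 689.5 and 1597 CPM in MIA striatum saline against 5655, 4283 and 1407 CPM in control striatum saline. The part of these cells in the differences was not tested.

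For the difference between the LPS responses of MIA and control mice (MIA by LPS interaction), 0 of the 9 genes were called in striatum and 0 in cortex by edgeR or DESeq2, as for 0% and 0% of all genes by edgeR. DESeq2 called 35 of all genes in striatum and 1 in cortex. An unadjusted p under 0.05 in edgeR was reached by 1323 and 744 of the 17139 tested genes in striatum and cortex. Among the 9 it was reached by 1 gene in striatum and 0 in cortex. That gene was Cst3, whose fall was larger in MIA by 0.57 ± 0.24 in striatum (adjusted p = 0.63) and by 0.38 ± 0.23 in cortex (adjusted p = 1). Averaged over both regions, in a contrast added after the values were seen, the interaction was -0.47 ± 0.17 (95% confidence interval -0.82 to -0.12, unadjusted p = 0.011, adjusted p = 0.36), and 0.0175% of all genes were called. Both tools called 0 of the 9 there, and DESeq2 called 150 of all genes. Cst3 was the 1 member with an unadjusted p under 0.05 in edgeR, as were 1597 of all tested genes. If cortex and striatum libraries share mice, the p-value of this average is too small. The 8 others had averaged interactions between -0.32 (Gpr84) and 0.42 (Slc2a5). The LPS by region interaction asks whether LPS acted differently in striatum and cortex. It gave 0 calls among the 9 in MIA and in control mice by edgeR and by DESeq2, and 0 at an unadjusted p under 0.05. Of all genes, edgeR called 0% in both, and DESeq2 called 6 genes in each. An unadjusted p under 0.05 in edgeR was reached by 478 of all tested genes in MIA and 946 in control mice.

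Between regions, 0 of the 9 genes were called in MIA LPS, control LPS, MIA saline and control saline by edgeR's quasi-likelihood test, where 0.0117%, 0.0175%, 0.0817% and 0.502% of all genes were. DESeq2 called 0, 0, 0 and 1 of the 9, against 16, 51, 95 and 579 of all genes. An unadjusted p under 0.05 in edgeR was reached by 0, 1, 0 and 1 of the 9, against 634, 806, 783 and 2030 of all tested genes. Each time the member was Fcrls. With MIA cortex LPS replicate 3 left out, edgeR called 1 member in control saline. Fcrls averaged 2424 ± 232 CPM in MIA striatum LPS (SD, n = 2) and 2972 ± 620 CPM in MIA cortex LPS, and 2052 ± 215 CPM in control striatum LPS and 2661 ± 266 CPM in control cortex LPS (SD, n = 3). After saline it averaged 3586 ± 243 CPM in MIA striatum and 4306 ± 121 CPM in MIA cortex, and 3255 ± 158 CPM in control striatum and 4763 ± 141 CPM in control cortex (SD, n = 3 each). Striatum and cortex libraries overlapped only in MIA LPS, and no share over all genes was computed for this.

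The log2 fold changes of Fcrls, striatum over cortex, were -0.29 ± 0.16 in MIA LPS, -0.37 ± 0.14 in control LPS, -0.26 ± 0.14 in MIA saline and -0.55 ± 0.14 in control saline (edgeR's quasi-likelihood test, adjusted p = 1, 0.79, 1 and 0.074). Averaged over the 4, in a contrast added after the values were seen, Fcrls was lower in striatum by 0.37 ± 0.07 (95% confidence interval -0.52 to -0.22, adjusted p = 0.0091), and it was the 1 member called, where 2.45% of all genes were. Without MIA cortex saline replicate 1 there were 2 members called. The test did not pair regions by mouse, as the labels do not say whether libraries share a mouse. The other 8 genes averaged between -0.24 (Slc2a5) and 0.22 (Cst3). In the same contrast 7 of 12 border-associated macrophage markers, 7 of 13 neutrophil markers and 3 of 12 blood monocyte markers were called lower in striatum, and 7 of 13 oligodendrocyte markers were called higher. Summed border-associated macrophage markers were 625.9 to 827.4 CPM in MIA striatum saline against 1062 to 1392 CPM in MIA cortex saline. In control saline libraries they were 617.0 to 731.4 CPM in striatum against 1095 to 1474 CPM in cortex. After LPS the regions overlapped, at 1448 to 1808 CPM in MIA striatum against 910.1 to 1968 CPM in MIA cortex. Control striatum LPS had 666.3 to 972.3 CPM against 847.7 to 1479 CPM in control cortex LPS. The part of these cells in the regional difference of Fcrls was not tested.

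**Figure D5:**
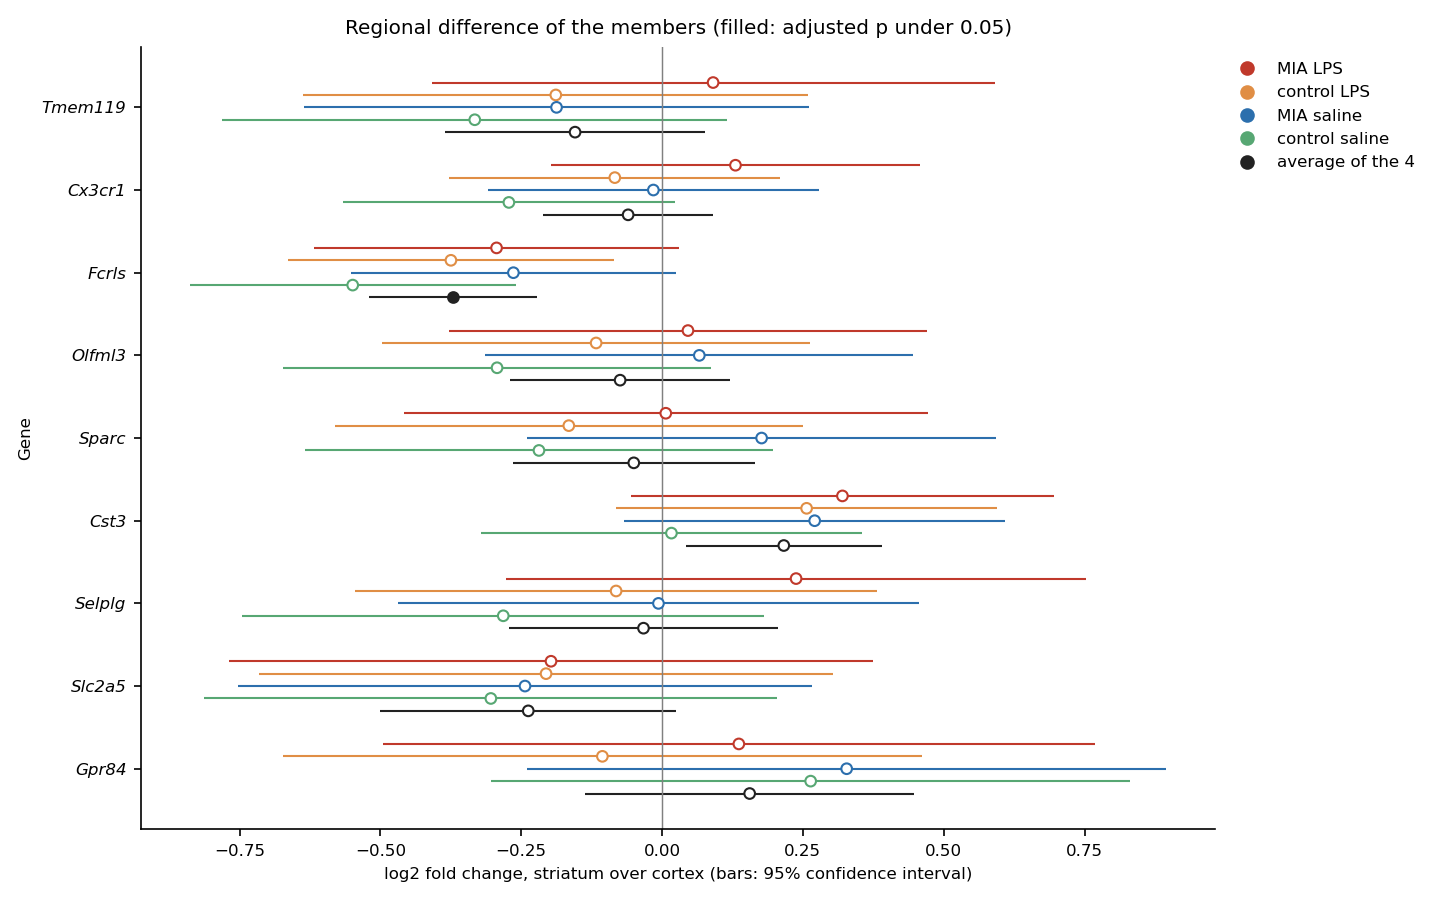
Regional difference of each gene as log2 fold change, striatum over cortex (horizontal axis, bars give the 95% confidence interval), in MIA LPS, control LPS, MIA saline, control saline and their average. The filled point, with an adjusted p under 0.05, is the average of Fcrls at -0.37.

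Ordered by group mean, the highest group was control cortex saline for Tmem119, Cx3cr1, Fcrls, Olfml3, Selplg and Slc2a5, MIA striatum saline for Sparc and Cst3, and control cortex LPS for Gpr84. Neighbours in the order often did not differ beyond their spread: Tmem119 averaged 5079 ± 785 CPM in control cortex saline and 4597 ± 587 CPM in MIA cortex saline (SD, n = 3 each). The step between the LPS and the saline groups was, as a ratio, the widest of the 9 for Slc2a5, between 273.4 ± 30.4 CPM in MIA cortex LPS, its highest LPS group, and 800.2 ± 32.4 CPM in MIA striatum saline, its lowest saline group.

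The genes whose pattern over the 8 group means was most like that of each member were found by the RMS difference of centred mean log2 CPM, among the same 8278 genes. Among the nearest were Mapk7 (0.0561) and Prkab1 (0.0585) for Tmem119, Cyb5d2 (0.0419) for Cx3cr1, and Platr25 (0.0799) and Patz1 (0.0904) for Fcrls. For the secreted genes they were Mfng (0.0572) and Git2 (0.0584) for Olfml3, Clasp2 (0.0522) and Plekhm3 (0.064) for Sparc, and Jade1 (0.104) and St3gal2 (0.117) for Cst3. For the others they were Kmt2e (0.0374) and Ctsd (0.060) for Selplg, Maged2 (0.144) and Slc40a1 (0.146) for Slc2a5, and Milr1 (0.130) and Ppa1 (0.152) for Gpr84. All genes share these libraries and their scaling, so this is a description. The members themselves varied around their own means by an RMS of 0.208 (Cx3cr1) to 1.02 (Slc2a5).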

How the data were processed

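The deposited table held estimated counts (RSEM expected counts) per gene and library. Per the submitters' processing notes, the authors used STAR, RSEM and DESeq2; tool versions are not given in the sources used here, nor is a build. Of values above 0, 20.3% were not whole, and all were rounded. Per the labels, cDNA was primed with oligo-dT in a modified Smart-Seq2 protocol, and no strand setting is given. Of 55487 identifiers, 55141 matched a symbol.

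Tests used edgeR 4.0.16 in R 4.3.3: TMM scaling, low genes dropped by filterByExpr over the 8 groups (at its settings of 10 and 15 for count and total), and a quasi-likelihood model with 1 term per group over 23 libraries (15 residual degrees of freedom). Adjustment of the p-values (both sides) was by Benjamini-Hochberg over all 17139 genes, comparison by comparison. CPM are counts divided by the TMM-scaled library size. The excluded library, DESeq2 1.42.0, other scalings, no filter, a replicate block and leaving out each library were alternatives. Depth was 19453300 to 29480500 counts a library, and no 2 replicates agreed within sampling noise. The fit was tested on simulated data, with changes set in control cortex LPS. It recovered 21 of 95 genes (22.1%) at a log2 change of 1 and 54 of 99 (54.5%) at 2, with 3 false calls. Changes of these sizes were thus missed in the simulation, where 95 and 99 of 16519 fitted genes were changed. Adjustment is stricter with so few changed genes than for LPS in control cortex, where 7.25% were called lower and 10.9% higher. The rates therefore do not measure what could be missed among the members. Fcrls, for example, was called for LPS in control cortex at a log2 fold change of -0.84 ± 0.14.

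Members and lists were chosen with earlier results of these data known, and 3 averaged contrasts were added after values were seen. All 9 members were fitted in every comparison. Of the other homeostatic and partner lists, the text names up to 4 called genes with the smallest adjusted p per LPS comparison, and others it names were chosen after their values were seen; some genes that this rule or the search for like patterns would name are not reported here. Same-numbered libraries deviated together (every correlation of 3 pairs above 0.1) in 2 of 21 pairs of groups, MIA cortex LPS with MIA cortex saline (0.12 to 0.31) and control striatum LPS with control cortex LPS (0.28 to 0.31). The replicate block changed no member call in those comparisons (9 of 9 for LPS in MIA cortex).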

Additional observations from a re-analysis of the deposited data

Results flagged for a closer look

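The library that the submitters marked as excluded, MIA striatum LPS replicate 3, is used in no comparison above, and its Gpr84 level of 1548 CPM lay above that of every MIA striatum saline library (250.6 to 595.0 CPM when all 24 libraries are scaled together). It also lay above the other 2 MIA striatum LPS libraries (1099 and 1142 CPM). Its Cx3cr1 level was 3281 CPM, below the lowest of the 23 other libraries (4380 CPM) and below the other 2 of its group (5708 and 6064 CPM). The remaining members of that library stood between the lowest and the highest of the other 23 libraries, with Slc2a5 at 327.3 CPM and Olfml3 at 2004 CPM. Why it was excluded is not given in the labels.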

How the results depend on the processing

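The counts of members called were within 1.5 times the reported ones in 119 of 120 values under the 6 other settings and in 453 of 460 with 1 library left out. In the exception, DESeq2 called 1 member for striatum minus cortex in control saline, where edgeR called 0. With 1 library left out, the LPS count ran from 3 to 6 in MIA striatum, 4 to 8 in control striatum, 5 to 9 in MIA cortex and 6 to 9 in control cortex; the regional count ran from 0 to 1 in control saline (1 without MIA cortex LPS replicate 3), and from 1 to 2 for the averaged regional contrast (2 without MIA cortex saline replicate 1). The LPS count averaged over groups was 9 under all 29 alternatives. Of the 60 fold changes recomputed, 1 turned its sign: Gpr84 for MIA in cortex saline ranged from -0.66 to 0.0021, the upper value without MIA cortex saline replicate 1. In the control striatum, Cst3 was called by DESeq2 (adjusted p = 0.0083), with RLE size factors (0.032), with library totals only (0.012) and with the replicate block (0.045), which gave 8 members there; the reported value was 0.065. Cx3cr1 was not called in MIA cortex or control cortex without the filter (0.17 and 0.070) or with the excluded library added back (0.17 and 0.083), nor in MIA cortex with library totals (0.059). Calls were also lost for Fcrls in MIA striatum without the filter (0.079), and with the excluded library added back for Olfml3 in MIA striatum (0.056), Tmem119 and Selplg in control striatum (0.053 each) and Selplg in MIA cortex (0.051). Cx3cr1 in control striatum was called with library totals (0.046). Over all fold changes with 1 library left out, 73 of 1380 values lost a call and 5 gained one. Library totals moved the median of all genes for LPS in control striatum to -0.13. Groups of 2 or 3 libraries limit what could be called.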

Other observations

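Selp and Sele, the endothelial selectins that bind the product of Selplg, were found only at very low levels. Selp stood at 1.36 to 3.92 CPM in the 11 LPS libraries and at 0 to 0.228 CPM in the 12 saline libraries, and Sele at 0.0824 to 6.14 CPM and 0 to 0.0483 CPM. Cx3cl1, which encodes fractalkine, the ligand of Cx3cr1, stood at 6.24 to 45.8 CPM in LPS libraries and 9.69 to 38.9 CPM in saline libraries. These 3 genes were chosen after their values were seen.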
